A study of Eurytemora affinis with 18 samples.

Results

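Gene expression in adult female copepods exposed to the lower nominal concentration of tebufenozide (TEB), 0.5 µg/L, was compared with that in female controls. The comparison holds 6 of the 18 libraries of the study, 3 of females at 0.5 µg/L and 3 of female controls, chosen by their labels. The species is Eurytemora affinis, a small crustacean of estuarine plankton that was collected in the Seine estuary and kept in the laboratory before exposure. The other libraries are 3 of females at 50 µg/L and 9 of males, control or exposed to 0.5 or 50 µg/L. Each library was made from a pool of whole adults, and the females carried no eggs. The controls were held in the same water with acetone, the solvent that the exposed copepods also received. The concentrations are nominal. In the water of the lower exposure, as in that of the control, the study measured TEB below its quantification limit. The paper proposes that this limit was probably too close to the nominal concentration. The lower exposure was thus not verified by measurement. In the higher exposure the measured concentration was well below the nominal one, so the nominal ratio between the exposures is not a measured ratio. The animals are a wild population and not an inbred strain, and the sources do not state their age. Control replicates 1, 2 and 3 and exposed replicates 1 and 2 were sequenced on a High Output flow cell with shorter reads, whereas exposed replicate 3 was sequenced on a Mid Output flow cell with longer reads, as were all females at 50 µg/L. In bulk RNA of whole animals, fewer cells of a type and less RNA per cell cannot be told apart.

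TEB is an insecticide that mimics the moulting hormone of arthropods. It binds the ecdysone receptor, which first switches on early genes such as the broad-complex and Eip74EF transcription factors, and these regulate late genes that build and remove the cuticle. The cuticle is a layered coat of chitin and structural proteins, and cuticle proteins bind chitin or fill the matrix between its fibres. Adult copepods no longer moult, but the cuticle still lines their body surface and the front and hind parts of their gut.

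The counts on genes summed to 17114866, 13325753 and 14073018 in control replicates 1, 2 and 3, and to 16139881, 14539358 and 10225441 in exposed replicates 1, 2 and 3. Within each group the libraries differed by more than sampling noise, with a chi-square of at least 6.41 for each degree of freedom, so no library was a copy of another. Control replicate 2 stood farther from its group than the other controls, with Spearman correlations of 0.965 and 0.975 with replicates 1 and 3, which correlated at 0.980 with each other. The correlations among the 3 exposed libraries ran from 0.981 to 0.987. Markers of male RNA were near 0 in all 6 libraries. The 560 genes at least 64-fold higher in males than in females at 50 µg/L, libraries outside the comparison, had a median level of at most 0.0797% of the male level in each of them. Their summed level ran from 96.2 to 151 CPM (counts scaled to a common library size with the TMM factors of edgeR) and did not separate the groups (exact two-sided permutation test, p = 0.7, where 3 against 3 libraries cannot go below 0.1).

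No gene was called between females at 0.5 µg/L and controls when all 9 female libraries were fitted together with the quasi-likelihood test of edgeR. Calls were made at a p, adjusted by Benjamini-Hochberg, no higher than 0.05 together with a difference of 2-fold or more. The smallest adjusted p of the 15555 genes tested was 0.9996. At an unadjusted p under 0.05 there were 337 genes at a lower level (2.17% of those tested) and 131 at a higher level (0.842%), so that 72.0% of these 468 genes (3.01%) were lower. Large differences were mostly toward lower levels. A fitted log2 fold change of -1 or less was found for 459 genes (2.95%), and of 1 or more for 91 genes (0.585%). By contrast, the 3 exposed libraries lay below the 3 controls for 694 genes (4.46%) and above them for 628 (4.04%).

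**Figure D1:**
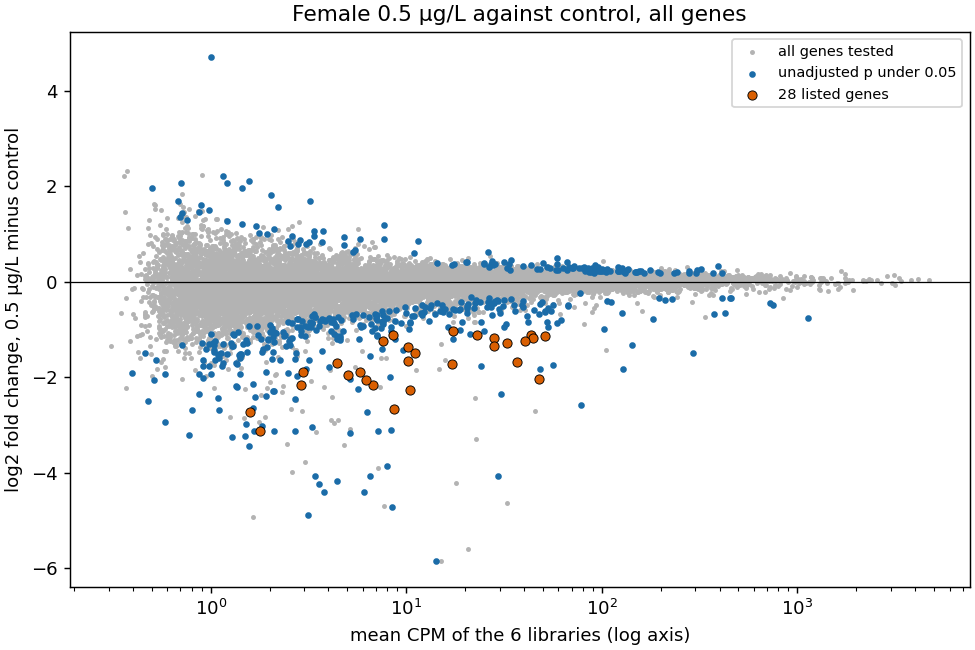
Log2 fold change (0.5 µg/L minus control, vertical axis) against the mean CPM of the 6 libraries (horizontal log axis) for the 15555 genes tested. Blue points are the 468 genes with an unadjusted p under 0.05 and orange points the 28 genes listed by the study, which lie between -3.13 and -1.02.

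Other tests of the same counts called a few genes, all at a lower level. With 9 libraries, 5 genes (0.0321%) passed the likelihood ratio test of edgeR and 5 (0.023%) passed DESeq2, and these sets shared 2 genes, LOC111704119 and LOC111705490. The likelihood ratio test added LOC111699163, LOC111702465 and LOC111704801, and DESeq2 added LOC111697205, LOC111708430 and LOC111713970. When the 6 libraries were fitted alone, the quasi-likelihood test again called 0 genes, with 410 lower (2.69%) and 89 higher (0.584%) at an unadjusted p under 0.05 and a smallest adjusted p of 0.501. In these 6 libraries the likelihood ratio test called 31 genes (0.204%), DESeq2 called 35 (0.222%) and 25 genes were called by both, a result that was added after the data were seen. All were lower at 0.5 µg/L.

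The study lists 28 genes for this comparison, of which 12 have a protein name and 16 are uncharacterized. The list was chosen on these same libraries, so that its direction is a description and not independent evidence. The levels of all 28 in every exposed library were below those in every control, against 4.46% of all genes tested. Their median log2 fold change was -1.67, which is 3.18-fold lower, against 0.0077 over all genes. The listed genes summed to 934, 701 and 616 CPM in control replicates 1, 2 and 3, and to 275, 321 and 242 CPM in exposed replicates 1, 2 and 3. The lowest control was thus well above the highest exposed library. Control replicate 1 was the highest control for 22 of the 28 genes, while over all genes it was the highest for 33.8%. Of the 28, 24 had an unadjusted p under 0.05 in the quasi-likelihood test of 9 libraries, and 28 in that of 6 libraries. The likelihood ratio test and DESeq2 on 6 libraries called 21 and 27 of them.

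**Figure D2:**
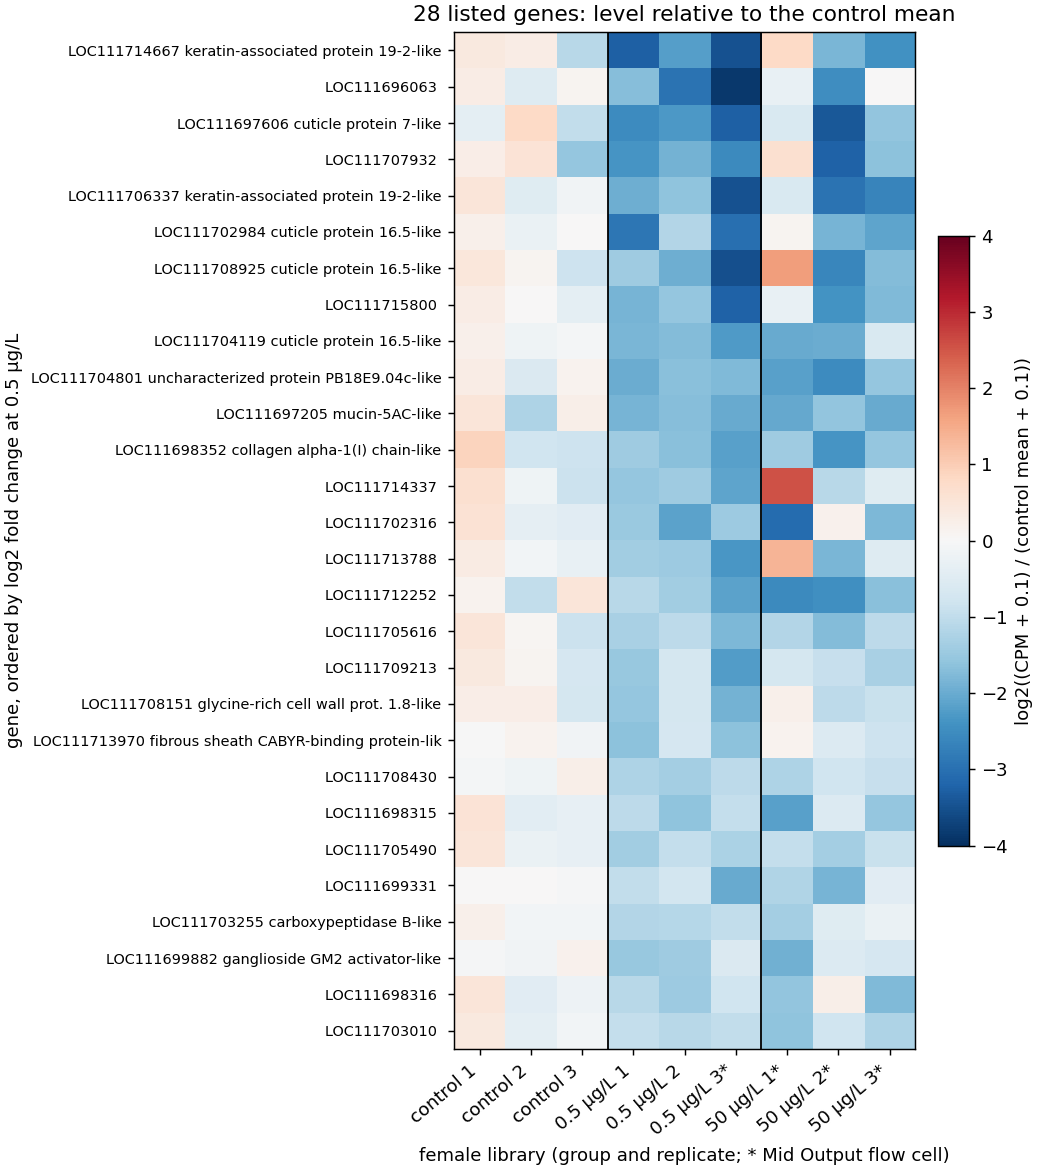
Level of the 28 listed genes (rows, ordered by log2 fold change) in the 9 female libraries (columns), as the log2 ratio of CPM to the mean of the 3 controls, red for higher and blue for lower. The 3 columns of 0.5 µg/L are blue in all 28 rows, and replicate 1 at 50 µg/L is above the highest control in 6 of them.

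The levels of all 6 named cuticle protein genes were lower in every exposed library than in every control, against 4.46% of all genes, with a median log2 fold change of -2.11. All of them have a name here because the study lists them as lower in females against these same controls, 4 at 0.5 µg/L, among the 28, and 2 at 50 µg/L. Their common direction and the separation of the groups were thus set or favoured by how they were chosen, and are a description. Their levels summed to 236, 222 and 321 CPM in the controls and to 62.6, 85.1 and 19.1 CPM in the exposed libraries. Names were at hand only for genes that the study lists in some comparison, males included, so these 6 are not the whole family, and the gene lists described here cannot be ranked against each other.

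Of the 2 genes called by both the likelihood ratio test and DESeq2 in 9 libraries, LOC111704119 encodes a cuticle protein 16.5-like. It had 9.34, 7.10 and 7.64 CPM in the controls and 2.18, 2.34 and 1.58 CPM at 0.5 µg/L. The controls were close together and all exposed libraries were far below them. The log2 fold change was -1.97 ± 0.40 (SE, n = 3 per group), 3.91-fold lower, with an adjusted p of 0.024 in the likelihood ratio test of edgeR and 0.0070 in DESeq2. The other listed genes of that name were LOC111702984, at 5.45, 3.94 and 4.82 CPM against 0.545, 2.07 and 0.495, and LOC111708925, at 13.7, 10.9 and 5.65 CPM against 3.70, 2.55 and 0.791. Without exposed replicate 2, its highest exposed library, the log2 fold change of LOC111702984 went from -2.16 to -3.15. For LOC111708925 the log2 fold change was -2.06 ± 1.11 (SE) in the fit of 9 libraries, with an unadjusted quasi-likelihood p of 0.10. That fit includes the females at 50 µg/L, which spread widely, at 32.3, 1.55 and 2.96 CPM. In the 6 libraries alone the log2 fold change was -2.08, with an unadjusted quasi-likelihood p of 0.0024. LOC111711095, a 4th gene of the name that is outside the 28 and was chosen after its values were seen, was the most abundant of these, at 83.7, 93.7 and 82.6 CPM in the controls and 23.6, 42.8 and 11.1 CPM at 0.5 µg/L. It was 3.33-fold lower. Genes that share a name may share reads, so the split between them is uncertain.

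The pair of cuticle protein 7-like genes had the largest differences of the group. LOC111697606 had 11.3, 26.2 and 7.57 CPM in the controls against 2.54, 2.96 and 1.48 CPM, 6.33-fold lower (log2 fold change -2.66 ± 0.64, SE). Control replicate 2 was its highest library, and without it the log2 fold change was -2.02. Its adjusted p was 0.087 in the likelihood ratio test of edgeR on 9 libraries and 5.0e-04 on 6 libraries. LOC111698563 was more abundant, at 112, 80.6 and 213 CPM against 30.1, 32.4 and 3.66 CPM. Exposed replicate 3 was far below replicates 1 and 2, which themselves were below every control. The 3 females at 50 µg/L, on the same flow cell as that replicate, had 12.3, 11.2 and 25.9 CPM. The log2 fold change of LOC111698563 was -2.59 ± 0.78 (SE) with all libraries and -2.11 without replicate 3.

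**Figure D3:**
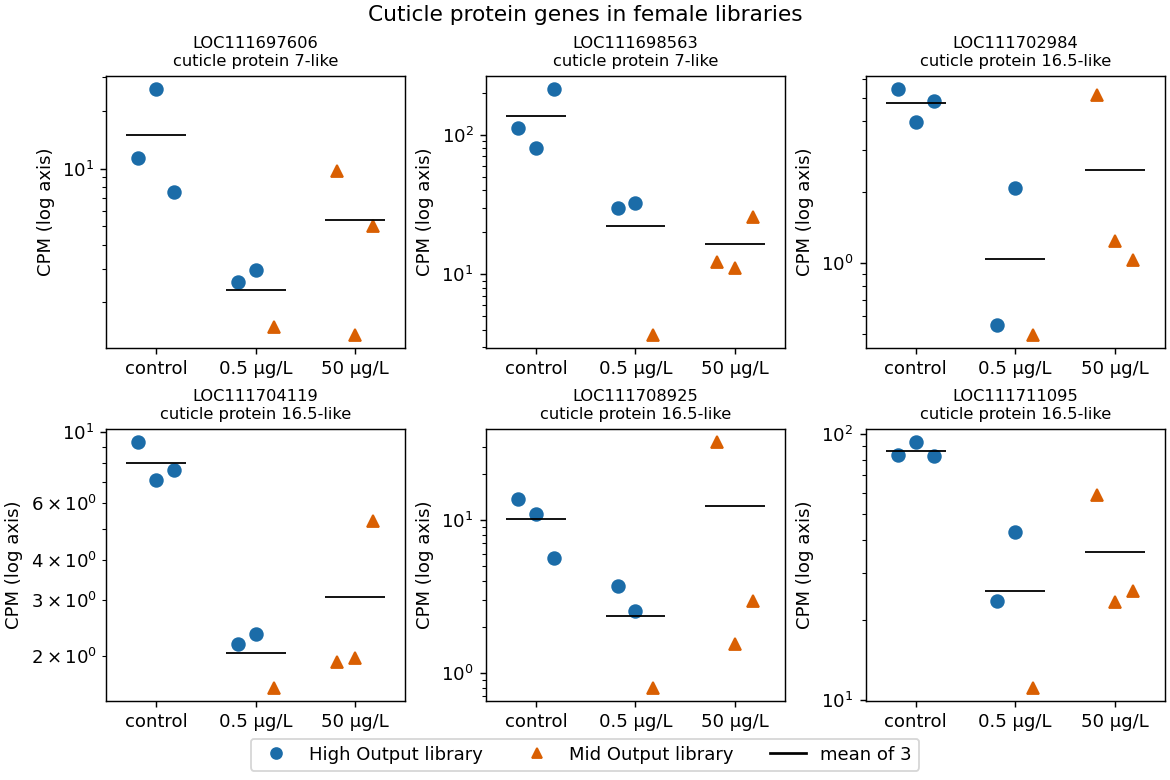
CPM of the 6 cuticle protein genes (vertical log axes, each with its own range) in female controls, at 0.5 µg/L and at 50 µg/L. Each point is 1 library (circles High Output, triangles Mid Output) and lines are means of 3; in every panel the 3 points at 0.5 µg/L lie below the 3 controls.

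Genes named after other repetitive structural proteins were mixed. Of 18 named genes for glycine-rich, keratin-associated, collagen-like, extensin-like and prisilkin-like proteins, 15 had a log2 fold change below 0, 6 of them at an unadjusted p under 0.05 (2.17% of all genes were lower at that p), and 5 lay below every control in all exposed libraries (4.46% of all genes). Their median was -0.37, and 4 are among the 28. These 4 are in both counts and were listed on these same libraries, so the counts are a description. Both genes for keratin-associated protein 19-2-like, named after a mammalian hair protein, were lower. LOC111706337 had 15.3, 7.80 and 9.98 CPM in the controls against 2.79, 3.51 and 0.890 CPM, 4.51-fold lower. LOC111714667, the listed gene with the largest difference, had 4.23, 4.01 and 1.45 CPM against 0.242, 0.620 and 0.198 CPM. Its exposed levels rest on 4, 9 and 2 reads, and its log2 fold change was -3.13 ± 0.86 (SE), or -3.79 without exposed replicate 2. LOC111698352, a collagen alpha-1(I) chain-like gene named after a matrix protein, had 49.1, 15.0 and 14.8 CPM in the controls and 9.76, 8.13 and 5.74 CPM at 0.5 µg/L. Control replicate 1 alone was far above the rest, and without it the log2 fold change of LOC111698352 went from -1.73 to -0.91. LOC111708151, glycine-rich cell wall structural protein 1.8-like, had 55.9, 55.6 and 28.6 CPM against 15.9, 28.6 and 12.7 CPM, and there control replicate 3 and exposed replicate 2 nearly met. Other abundant members were close to level, such as LOC111707966, glycine-rich cell wall structural protein 1-like, at 109, 153 and 117 CPM against 124, 129 and 127 CPM.

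The other named genes of the list have varied names. Mucins are heavily glycosylated proteins of slime and gut linings. LOC111697205, mucin-5AC-like, had 12.7, 3.86 and 10.8 CPM in the controls and 2.42, 2.76 and 2.18 CPM at 0.5 µg/L. Control replicate 2 lay nearer to the exposed libraries than to the other controls. The gene was 3.71-fold lower (log2 fold change -1.89 ± 0.40, SE), with an adjusted p of 0.036 in DESeq2 and 0.067 in the likelihood ratio test of edgeR on 9 libraries. The other 7 named mucin genes ran from -0.99 to 0.03 on the log2 scale. The lowest of these, LOC111711799, integumentary mucin C.1-like, had 133, 107 and 172 CPM against 84.0, 85.5 and 36.4 CPM.

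LOC111699882 encodes a ganglioside GM2 activator-like protein, which in mammals presents a glycolipid to a lysosomal enzyme. It had 58.0, 53.5 and 66.6 CPM in the controls and 20.7, 22.0 and 40.1 CPM at 0.5 µg/L. Here replicate 3 was the highest exposed library, and without it the log2 fold change went from -1.11 to -1.47. The other named gene of the family, LOC111702480, had 22.7, 13.4 and 18.5 CPM against 16.5, 13.3 and 16.2 CPM, with groups that overlapped.

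LOC111703255 encodes a carboxypeptidase B-like protein, an enzyme that trims basic residues from the end of proteins. Its levels were tight in both groups, at 13.5, 10.8 and 10.9 CPM against 5.15, 5.24 and 5.84 CPM, and it was 2.17-fold lower (log2 fold change -1.12 ± 0.28, SE). Of the 6 named digestive proteases, 5 had a log2 fold change below 0, 2 of them at an unadjusted p under 0.05 (2.17% of all genes were lower at that p). Only carboxypeptidase B-like lay below every control in all exposed libraries (4.46% of all genes). The 2 genes are carboxypeptidase B-like, which the study lists for this comparison, and LOC111716204, which it lists as lower in females at the higher concentration. Both were thus listed against these same controls, so the counts are a description. LOC111716204, trypsin-1-like, had 31.1, 8.80 and 24.9 CPM in the controls against 11.8, 13.2 and 8.51 CPM, so that control replicate 2 lay among the exposed libraries. LOC111713970, named after a protein of the sperm tail in mammals (fibrous sheath CABYR-binding protein-like), had 56.5, 62.6 and 52.0 CPM against 18.4, 35.6 and 18.3 CPM. It was 2.36-fold lower, with an adjusted p of 0.029 in DESeq2 and 0.067 in the likelihood ratio test of edgeR on 9 libraries.

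The uncharacterized genes included the most evenly separated ones. LOC111705490 had 85.7, 50.8 and 48.7 CPM in the controls and 23.6, 32.0 and 25.8 CPM at 0.5 µg/L. It was 2.28-fold lower (log2 fold change -1.19 ± 0.22, SE), with an adjusted p of 0.0068 in the likelihood ratio test of edgeR and 0.0034 in DESeq2 on 9 libraries. LOC111708430 had 10.01, 9.42 and 12.4 CPM against 4.42, 4.06 and 5.05 CPM, 2.35-fold lower, with an adjusted p of 0.0070 in DESeq2. Both genes were at similar levels in the 3 exposed libraries, and control replicate 1 was the only control of LOC111705490 that stood apart.

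LOC111715800 was among the more abundant, at 94.7, 76.7 and 58.4 CPM against 21.1, 26.4 and 8.11 CPM, 4.09-fold lower. LOC111699331 had nearly equal controls, at 71.8, 71.1 and 68.2 CPM, and 35.5, 42.2 and 17.4 CPM at 0.5 µg/L. In both, replicate 3 was the lowest exposed library. LOC111704801 had 5.73, 3.09 and 5.16 CPM against 1.09, 1.38 and 1.29 CPM, 3.72-fold lower, with an adjusted p of 0.037 in the likelihood ratio test of edgeR. The smallest difference of the 28 was that of LOC111703010, at 30.6, 17.8 and 21.8 CPM against 11.9, 10.9 and 11.7 CPM, 2.03-fold lower.

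Genes outside the 28 had the same pattern. A log2 fold change of -1 or less, with all 3 exposed libraries below all 3 controls, was found for 192 genes (1.23%), which include the 28. The reverse, 1 or more with all exposed libraries above all controls, was found for 43 (0.276%). LOC111699163 and LOC111702465, which have no name in the sources used here, were 9.57-fold and 9.24-fold lower in the fit, from 3.61, 1.16 and 2.27 CPM to 0.242, 0.344 and 0.0989 CPM, and from 2.00, 0.926 and 1.31 CPM to 0.121, 0.207 and 0.0989 CPM. Both rest on 5 or fewer reads in each exposed library. The following 2 were chosen after their values were seen, as genes with a name that the likelihood ratio test and DESeq2 both called in 6 libraries. LOC111704039, shematrin-like protein 1, is named after a glycine-rich protein of mollusc shells, and had 90.2, 82.1 and 54.1 CPM against 23.9, 29.3 and 9.79 CPM, 3.56-fold lower. LOC111706122, zonadhesin-like, is named after a mammalian sperm protein that binds the egg coat, and had 6.67, 3.94 and 5.78 CPM against 1.94, 2.14 and 1.88 CPM, 2.75-fold lower.

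No gene was called at a higher level by any of the tests of 9 or of 6 libraries. The 10 genes with the largest higher levels that met the rule for naming (no overlap, unadjusted p under 0.05 and a mean of at least 1 CPM) had log2 fold changes from 1.00 to 2.08, and none of them has a protein name in the sources used here. LOC111701980 was the largest, at 0.167, 0.540 and 0.688 CPM in the controls and 1.94, 2.41 and 1.48 CPM at 0.5 µg/L. LOC111703020 followed, with 0.500, 0.695 and 0.551 CPM against 2.24, 1.24 and 3.46 CPM, and LOC111705539 had 1.45, 1.47 and 1.65 CPM against 8.60, 3.65 and 2.47 CPM. All 3 were weakly expressed, LOC111705539 went from a log2 fold change of 1.70 to 1.01 without exposed replicate 1, and control levels of LOC111701980 rest on 3, 7 and 10 reads.

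For early genes of the ecdysone pathway the groups overlapped. The 4 named members of the list had log2 fold changes from -0.04 to 0.12, with a median of 0.03, and 0 of them had groups that did not overlap or an unadjusted p under 0.05 in the quasi-likelihood test. LOC111709681, a broad-complex core protein-like gene, had 388, 573 and 432 CPM in the controls and 442, 478 and 595 CPM at 0.5 µg/L. LOC111704069, named after the ecdysone-induced protein Eip74EF, had 9.62, 4.17 and 10.4 CPM against 9.09, 10.5 and 3.86 CPM. In each group of this gene 1 library was low. LOC111717477, methyl farnesoate epoxidase-like, named after an enzyme of juvenile hormone synthesis, had 2.06, 1.85 and 1.31 CPM against 1.15, 0.827 and 2.97 CPM. Endochitinase A-like, LOC111697179, which degrades chitin, had 194, 202 and 197 CPM against 202, 207 and 220 CPM.

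Lists for stress, detoxification, muscle and egg production had medians near 0. The 9 heat shock protein genes had a median log2 fold change of 0.11, the 11 genes for detoxification enzymes (cytochromes P450, glutathione transferases and esterases) 0.03, the 14 muscle genes -0.09, the 4 genes of yolk and oogenesis -0.06 and the 3 histone genes 0.02. Members ran from -0.56 to 0.62 for heat shock, from -0.42 to 0.59 for detoxification and from -0.76 to 0.32 for muscle. In all exposed libraries, heat shock 70 kDa protein 1-like LOC111717007 lay above every control (4.04% of all genes). Myosin heavy chain, muscle-like LOC111711689 lay below every control (4.46% of all genes). The study lists this myosin gene as lower in females at the higher concentration against these same controls, so its position is a description. Of all the genes in these lists, 1 had an unadjusted p under 0.05, histone H1-delta-like (LOC111704762), at 99.7, 155 and 106 CPM in the controls against 99.6, 104 and 70.0 CPM. Vitellogenin-like (LOC111704362), the yolk protein precursor, had 138, 63.8 and 91.9 CPM against 95.3, 90.9 and 84.2 CPM, with the exposed libraries inside the range of the controls.

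**Figure D4:**
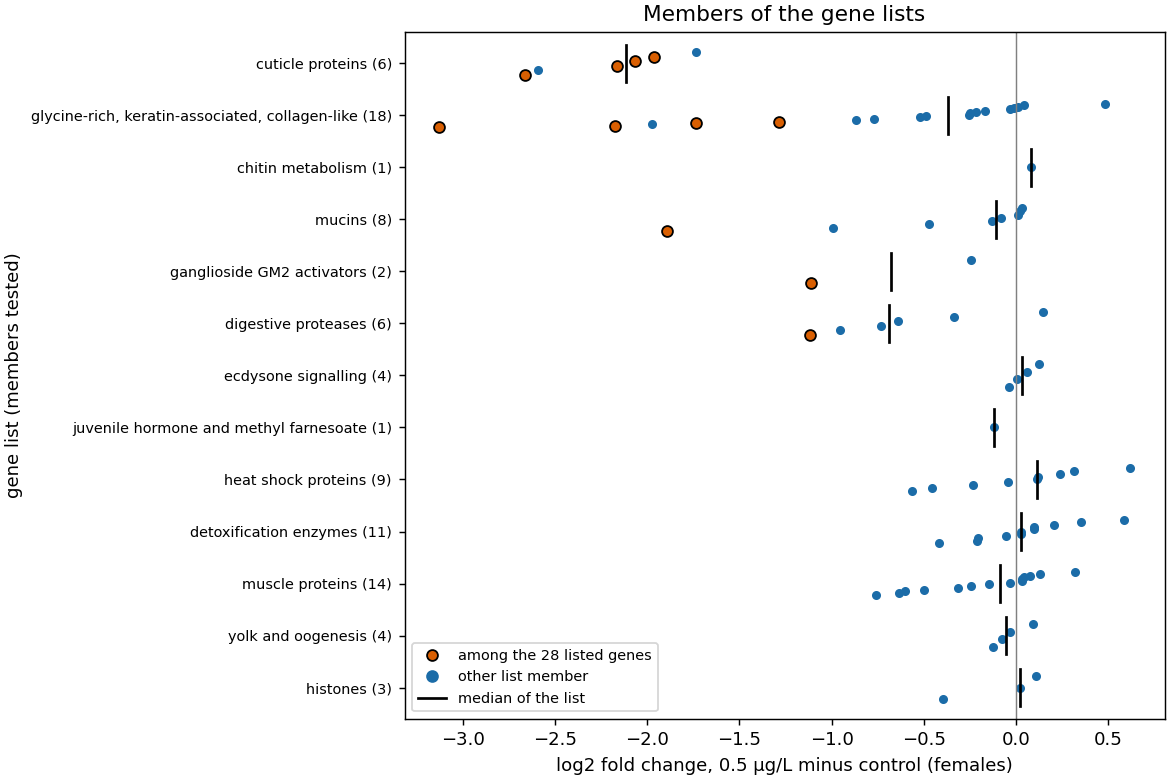
Log2 fold change (0.5 µg/L minus control, horizontal axis) of each member of the gene lists (rows, with the number tested), with the list median as a vertical line. Orange points are among the 28 listed genes; the 6 cuticle protein genes lie between -2.66 and -1.74, and the ecdysone members between -0.04 and 0.12.

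Exposed replicate 3 is the only library of the comparison from the Mid Output flow cell. Without it the median log2 fold change of the 28 was -1.49, from -2.89 to -0.85, in place of -1.67. Of the 28, 27 were still at least 2-fold lower and 21 had an unadjusted p under 0.05. The cuticle protein genes had a median of -1.84 without it. No gene was called by the quasi-likelihood test of edgeR, and 227 genes were lower and 73 higher at an unadjusted p under 0.05. The likelihood ratio test on the remaining 5 libraries called 16 genes, of which 7 are among the 28 (21 with all 6 libraries) and 11 were among the 31 called before. DESeq2 called 28 genes, of which 16 are among the listed ones (27 with all 6 libraries) and 17 were among the 35 called before. All of these calls were at a lower level. With the flow cell as a covariate instead, all 28 were lower with a median of -1.50. Replicate 3 was the lowest exposed library for 19 of the 28, while over all genes it was the lowest for 38.0%, and in 7 of the 28 it was at least 2-fold below the mean of replicates 1 and 2.

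For some genes the libraries of the Mid Output flow cell stood apart. The 4 Mid Output female libraries lay below the 5 High Output ones for 700 genes (4.50%) and above them for 519 (3.34%). Since 3 of these 4 libraries are the females at 50 µg/L and the other is a single pool at 0.5 µg/L, flow cell, concentration and a deviation of that pool cannot be told apart. Heat shock protein 83-like (LOC111707609) had 17.0, 22.9 and 20.1 CPM in the controls and 17.5 and 21.1 CPM in exposed replicates 1 and 2, but 4.65 CPM in replicate 3 and 5.48, 6.21 and 6.69 CPM at 50 µg/L. Myosin heavy chain, muscle-like (LOC111711689) had 24.1, 31.0 and 23.1 CPM, then 21.9 and 18.5 CPM, but 5.44 CPM in replicate 3 and 6.79, 3.83 and 5.66 CPM at 50 µg/L. Vasa-like RNA helicase (LOC111702462), a germ line factor, had 300, 311 and 301 CPM, then 335 and 327 CPM, and 201 CPM in replicate 3 with 207, 194 and 192 CPM at 50 µg/L. For the heat shock protein and vasa-like genes, replicates 1 and 2 were near the controls. For the myosin gene both were below every control, though far above replicate 3. Only 1 of the 28, LOC111712252, had all Mid Output libraries below all High Output ones. Among the other genes described above, cuticle protein 7-like LOC111698563, integumentary mucin C.1-like LOC111711799 and histone H1-delta-like LOC111704762 did so too, and for the cuticle protein and the mucin, replicates 1 and 2 were also below every control.

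The result also moved with single control libraries. Without control replicate 1 the median of the 28 was -1.27, and without replicates 2 and 3 it was -1.81 and -1.77. Without control replicate 2 the quasi-likelihood test of edgeR called 3 genes (0.019%) in the fit of the remaining female libraries and 14 (0.0881%) in that of the 5 libraries of the comparison, all lower. The 3 genes were mucin-5AC-like LOC111697205, LOC111702799 and LOC111718103, the last pair chosen after their values were seen. LOC111702799 had 43.5, 4.48 and 37.7 CPM in the controls and 15.6, 19.3 and 12.8 CPM at 0.5 µg/L, so that control replicate 2 was below every exposed library. LOC111718103 had 282, 150 and 259 CPM against 138, 154 and 109 CPM, and there control replicate 2 lay below exposed replicate 2. For LOC111718103 all Mid Output female libraries were also below all High Output ones.

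**Figure D5:**
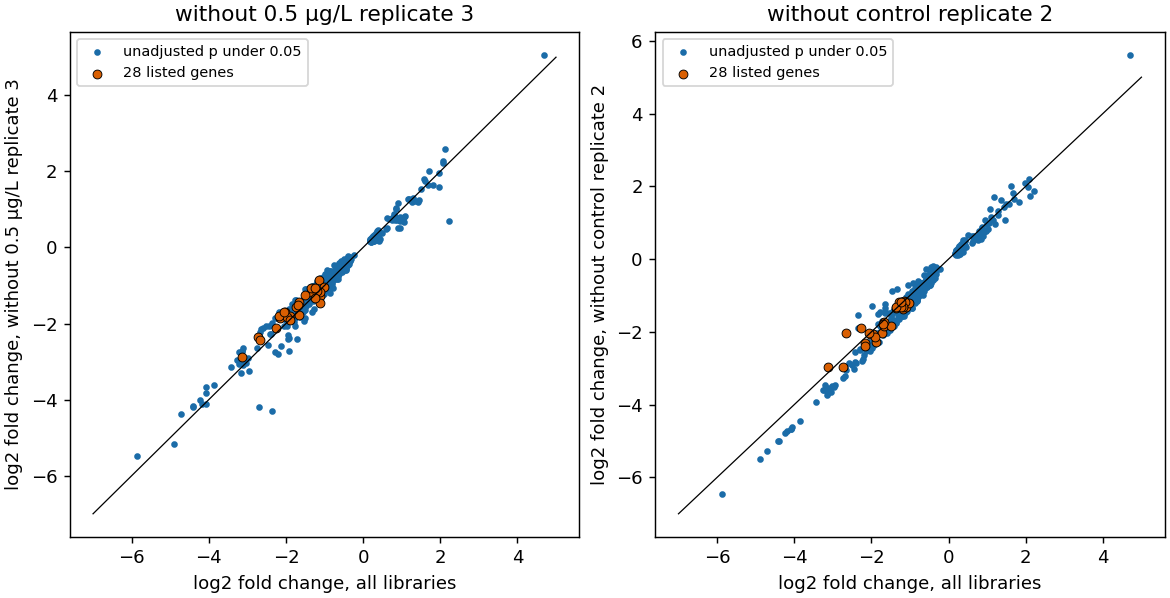
Log2 fold change (0.5 µg/L minus control) with all libraries (horizontal axes) against that without exposed replicate 3 (left panel) and without control replicate 2 (right panel), for the 28 listed genes and the other genes with an unadjusted p under 0.05 in the full fit. The diagonal marks equal values, and the 28 listed genes (orange) are below 0 on both axes of both panels.

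The same controls were compared with females at 50 µg/L, so those values are given beside the ones at 0.5 µg/L without a test of likeness. At 50 µg/L the 28 genes summed to 517, 370 and 347 CPM in replicates 1, 2 and 3. Their median log2 fold change was -0.98, from -2.21 to 1.23, with 25 below 0 and 15 below every control in all 3 libraries, where 9% of all genes were so. Replicate 1 at 50 µg/L differed from the others, being above the highest control for 6 of the 28, whereas replicates 2 and 3 were so for 0. In replicates 2 and 3 alone, 24 of the 28 were below every control, against 13% of all genes. For cuticle protein 16.5-like LOC111708925 these libraries had 32.3, 1.55 and 2.96 CPM, against 13.7, 10.9 and 5.65 CPM in the controls. The mucin-5AC-like gene LOC111697205 had 2.15, 3.00 and 2.19 CPM at 50 µg/L, all near its level at 0.5 µg/L. All libraries at 50 µg/L came from the Mid Output flow cell, so concentration and flow cell cannot be told apart there.

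At 50 µg/L the listed genes were mostly more abundant in males than in females. In the libraries at 50 µg/L, which are outside the comparison, 27 of the 28 were higher in males and 24 were called so by the quasi-likelihood test of edgeR, against 43% of all genes tested. The median log2 difference was 3.00, 8.03-fold, against 0.32 over all genes. The females in it were themselves at lower levels than female controls for 25 of the 28. The sexes were not tested against each other in the controls, where levels of some listed genes overlapped. Mucin-5AC-like LOC111697205 had 11.7, 12.2 and 15.5 CPM in male controls and 12.7, 3.86 and 10.8 CPM in female controls. LOC111705490, for example, was higher in males by 3.51 on the log2 scale (adjusted p 1.1e-10, quasi-likelihood test of edgeR). In male controls it had 286, 213 and 143 CPM, and in males at 0.5 µg/L 223, 256 and 261 CPM.

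In males at 0.5 µg/L most of the 28 were not lower. Against male controls, 23 of the 28 had a log2 fold change above 0 and 5 below, from -0.23 to 1.00 with a median of 0.30 (-0.0039 over all genes), and 3 had an unadjusted p under 0.05. In all 3 exposed male libraries, 0 of the 28 lay below every male control (3.19% of all genes) and 4 lay above (5.25% of all genes). No gene was called among the 17492 tested in males with the quasi-likelihood test of edgeR, where 693 had an unadjusted p under 0.05 (3.96%). For cuticle protein 16.5-like LOC111704119 the male controls spread widely, at 17.0, 94.4 and 20.2 CPM, against 27.2, 58.3 and 54.7 CPM at 0.5 µg/L. The difference between the sexes in the response was tested as an interaction in 12 libraries, added after the data were seen, and called 0 of 17880 genes with the quasi-likelihood test of edgeR, with 956 at an unadjusted p under 0.05 (5.35%). For the 28, the interaction was in all cases toward lower levels in females, with a median of -2.02 on the log2 scale, but these genes were listed on the female part of that contrast.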

How the data were processed

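Counts of the 9 female libraries, of 18 in all, were fitted together. The authors deposited unnormalized counts of reads on genes, made from single-end reads with Trimmomatic (trimming), STAR (alignment, assembly Eaff_2.0) and featureCounts (counting). Tool versions and the handling of reads that map to several genes are not given in the sources used here. This table holds 23728 genes.

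Genes with low counts were removed with the default filter of edgeR 4.0.16 in R 4.3.3, leaving 15555. Libraries were scaled by TMM, and the robust quasi-likelihood test was used for the 0.5 µg/L minus control contrast over all 9 female libraries. Each SE came from this fit, so it also reflects the spread of the females at 50 µg/L. Calls needed a p, adjusted by Benjamini-Hochberg, no higher than 0.05 and a difference of 2-fold or more. The likelihood ratio test of edgeR, DESeq2 1.42.0, a fit of the 6 libraries alone, other filters and scalings, a replicate block, the flow cell as a covariate and the removal of each replicate were alternatives. The fits with the likelihood ratio test and DESeq2 on 6 libraries, the replicates left out of them, the comparison of sexes at 50 µg/L, the interaction of sex and treatment and the count of flow cell patterns were added after the data were seen. The fits of the exposed females against controls with 9 and with 6 libraries were tested on simulated counts for all 3 tests. In these, 200 of 15555 genes were changed, all chosen from genes above a minimum mean level. At an adjusted p no higher than 0.05, false calls with 9 libraries numbered 12 (quasi-likelihood), 23 (likelihood ratio) and 48 (DESeq2). With 6 libraries they numbered 12, 25 and 49. Of the genes changed 2-fold, these tests recovered 77%, 81% and 91% with 9 libraries. Weakly expressed genes were not changed and no simulated library stood apart from its group. These shares are thus not the shares recovered in the real comparison. The comparison of sexes and the interaction were not simulated. The summed level of genes high in males was compared with an exact permutation test, for which 3 against 3 libraries cannot give a p below 0.1.

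Gene names came from the gene tables of the study, which name 1434 genes, 1382 of them among those tested. The genes described in the text were the 28 that the study lists for females at 0.5 µg/L, any gene called by a test of all 9 libraries or by the quasi-likelihood test of the 6, the 10 genes with the largest higher and the 10 with the largest lower fold change among genes with a mean of at least 1 CPM, an unadjusted p under 0.05 and groups that did not overlap, and the 2 members of each list at either end. The members and lists were chosen with earlier results of these data known. The study's own fold changes and p-values were not used. Library totals ran from 10225441 to 17114866 counts in the 6 libraries, and a level under 1 CPM rests on few reads.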

Additional observations from a re-analysis of the deposited data

How the results depend on the processing

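The count of 0 called genes stayed at 0 in the fit of the 6 libraries alone, with RLE scaling, with no filter on low counts, with a filter of at least 1 CPM in 3 libraries, without replicate 1 at 50 µg/L and with a term for the flow cell. In 9 libraries 5 genes passed the likelihood ratio test and 5 passed DESeq2, and in the 6 libraries 31 and 35 did so. With each replicate left out in turn, the quasi-likelihood test called 0 to 3 genes in 9 libraries and 0 to 14 in 6, the highest counts without control replicate 2. The likelihood ratio test on 6 libraries then called 10 to 132 genes and DESeq2 9 to 96, again the most without control replicate 2. Same-numbered controls and exposed libraries deviated together with correlations of 0.22, -0.06 and -0.07, where other pairs ran from -0.25 to 0.25. Whether the numbers pair the samples cannot be told from these values. With the replicate block 0 genes were called, and the median of the 28 was -1.55. The count of genes called, and the direction of the 28, were unaffected by the block.

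Of the 83 named genes, 66 were followed through the alternatives. Among these 66, the sign of the log2 fold change turned for 6, all close to 0. With each replicate left out, LOC111704069 (-0.04) ran from -0.37 to 0.28, LOC111709681 (0.12) from -0.0092 to 0.29, LOC111717477 (-0.12) from -0.80 to 0.21, LOC111704362 (-0.12) from -0.37 to 0.21, LOC111702462 (-0.08) from -0.20 to 0.13, and LOC111707966 (0.0095) from -0.088 to 0.16. Adding the flow cell to the model put LOC111704069 at 0.27, LOC111709681 at -0.012 and LOC111702462 at 0.12. None of these was called, and the cause was not tested. Of 195 list medians under the alternatives, 7 moved by more than the spread between replicates. With 3 pools per group, adjusted p-values measure the spread between these pools, and genes under 1 CPM rest on few reads. The adjusted p-values depended strongly on the tool, and the cause was not tested.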

Other observations

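Several of the largest lower fold changes rested on 1 control library. LOC111717982 had 18.6 CPM in control replicate 1 but 0.618 and 1.24 CPM in replicates 2 and 3, against 0.424, 0.413 and 0.198 CPM at 0.5 µg/L, and its fitted log2 fold change was -4.23. LOC111706937 had 23.4, 1.00 and 0.826 CPM against 0.545, 0.413 and 0.396 CPM (-4.18), and LOC111713299 had 7.39, 0.540 and 0.688 CPM against 0.303, 0.344 and 0.0989 CPM (-3.43). LOC111696489 and LOC111703312 had the same form, with 12.1 and 9.06 CPM in control replicate 1. Without control replicate 1 the log2 fold changes were -1.37 for LOC111717982, -0.99 for LOC111706937, -1.21 for LOC111713299, -1.19 for LOC111696489 (-3.14 with it) and -1.42 for LOC111703312 (-3.13 with it). None of these 5 genes has a name in the sources used here, and none was called by the quasi-likelihood test of edgeR, in which all had an unadjusted p under 0.05. LOC111703312 was among the genes called by DESeq2 in the 6 libraries, with an adjusted p of 0.045. For LOC111713299, replicate 1 at 50 µg/L was at 7.15 CPM, near control replicate 1, and replicates 2 and 3 were at 0.103 and 1.16 CPM.

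The uncharacterized genes LOC111702316, LOC111698315 and LOC111698316 shared a pattern over the female libraries. LOC111702316 had 83.8, 43.3 and 41.4 CPM in the controls, 19.8, 12.7 and 20.5 CPM at 0.5 µg/L and 6.56, 63.0 and 16.2 CPM at 50 µg/L. For LOC111698316 the values were 44.0, 23.0 and 26.9 CPM, 14.5, 11.4 and 17.9 CPM, and 10.5, 36.7 and 9.14 CPM. In each, control replicate 1 was the highest control, replicate 2 was the lowest at 0.5 µg/L and the highest at 50 µg/L, and all libraries at 0.5 µg/L were below the controls. By contrast, the uncharacterized genes LOC111713788 and LOC111714337 were highest in replicate 1 at 50 µg/L, with 40.4 and 40.1 CPM, against at most 19.5 and 10.6 CPM in a control.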
